A study of Rattus norvegicus with 6 samples.

Results

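The genes described here are 6 neuronal genes of synaptic transmission. Snap25, Syt1 and Syn1 act in transmitter release, and Grin1, Grin2a and Grin2b encode subunits of the NMDA-type glutamate receptor. They were taken by their Ensembl rat gene identifiers (ENSRNOG00000006037, ENSRNOG00000006426, ENSRNOG00000010365, ENSRNOG00000011726, ENSRNOG00000033942 and ENSRNOG00000008766, in the same order). All 6 were found among the 22526 genes listed in the deposited table. The samples were spinal cords of adult female Sprague-Dawley rats taken 2 weeks after spinal cord injury, with 1 library per rat. In the A-DON group (n = 3) the lesion had received a scaffold of decellularized optic nerve carrying Apt19S, an aptamer, that is, a short nucleic acid selected to bind a particular target. In the DON group (n = 3) the lesion had received the decellularized optic nerve scaffold without the aptamer. Every rat was thus injured and implanted, so the comparison asks what the aptamer added to the scaffold, and no uninjured or unimplanted cord was analysed here. Values are normalized counts, that is, reads per gene divided by a size factor of the library.

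Neurons release transmitter when calcium entry drives synaptic vesicles to fuse with the presynaptic membrane. The SNAP-25 protein is one of the SNARE proteins that pull the membranes together, synaptotagmin-1 on the vesicle senses the calcium, and synapsin-1 tethers vesicles in reserve behind the release site. On the receiving side, NMDA receptors are glutamate-gated channels that pass calcium. They are built from the obligatory GluN1 subunit (Grin1), which binds glycine, and GluN2 subunits such as GluN2A (Grin2a) and GluN2B (Grin2b), which bind glutamate and set the channel's kinetics. In the rodent nervous system GluN2B is prominent early in development, and GluN2A becomes more prominent after birth. In the spinal cord these receptors take part in sensory and motor transmission.

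Reads assigned to genes, worked out from the deposited values, numbered 24961512 to 28911941 per library in A-DON and 29143139 to 31189687 in DON. Together the 6 genes took 0.19%, 0.117% and 0.175% of these reads in A-DON replicates 1 to 3, against 0.0322%, 0.101% and 0.0597% in DON replicates 1 to 3. Every A-DON share lay above every DON share. Across all tested genes A-DON replicate 2 lay between the groups on the first principal component, and on the second DON replicate 1 lay apart from the other DON libraries, so results are also given below without each library.

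Of the 6 genes, 5 (Syt1, Syn1, Grin1, Grin2a and Grin2b) were higher in A-DON than in DON, and Snap25 did not pass the test (limma, Benjamini-Hochberg adjusted p under 0.05 over all 19515 tested genes). None was lower. Across all tested genes 35.5% passed the test in either direction, 18.9% as higher and 16.6% as lower in A-DON, so a change in this comparison was common. The log2 fold changes of the 6 had a median of 2.42, where the median of all tested genes was -0.02 and the 95th percentile 2.45. In the same 5 genes every A-DON library lay above every DON library, as it did in 28% of all tested genes. In bulk tissue, a higher share of neurons and more RNA per neuron in A-DON cannot be told apart. All 6 genes passed the filter on low values, 1 normalized count or more in 3 or more of the libraries.

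**Figure D1:**
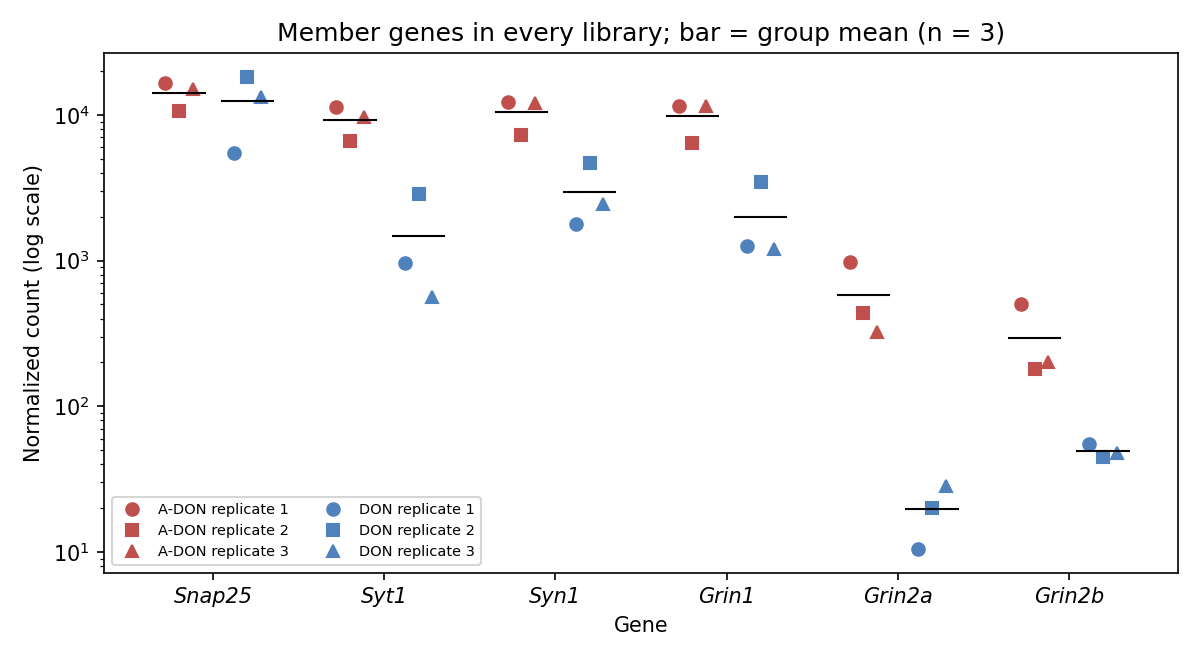
Normalized count (log axis) of each gene in every library, with A-DON in red left of DON in blue, replicates by marker shape and a bar at the group mean (n = 3). The groups overlap for Snap25 and are separate for the other 5 genes, with the widest gap for Grin2a.

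Snap25, the release gene whose protein is a SNARE, had 16437, 10710 and 15168 normalized counts in A-DON replicates 1 to 3, against 5481, 18310 and 13323 in DON replicates 1 to 3. The groups overlapped: the highest of the 6 values and the lowest were both DON libraries. The means were 14105 ± 3008 in A-DON and 12372 ± 6468 in DON (SD, n = 3 each). The log2 fold change was 0.33 with a 95% interval of -0.79 to 1.46, which spans from 0.577 to 2.75 times the DON level, and a limma adjusted p of 0.59. The interval thus allows a moderate change in either direction. The sign rested on 1 library, because without DON replicate 1 the log2 fold change was -0.17 (limma adjusted p = 0.631).

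Syt1, which encodes the calcium sensor of fast release, had 11264, 6637 and 9658 normalized counts in A-DON replicates 1 to 3, against 966.5, 2877 and 561.8 in DON replicates 1 to 3. The lowest A-DON value was 2.31 times the highest DON value. The means were 9186 ± 2349 in A-DON and 1468 ± 1236 in DON (SD, n = 3 each), and the log2 fold change was 2.95 ± 0.60 (standard error; limma adjusted p = 0.0191). This is 7.73-fold, with a 95% interval of 2.80 to 21.3. The DON libraries differed among themselves by up to 5.12-fold in this gene, the widest spread of any of the 6 genes within either group, and the A-DON libraries by up to 1.70-fold.

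Syn1, which encodes the vesicle-tethering synapsin, had 12293, 7248 and 12048 normalized counts in A-DON replicates 1 to 3, against 1785, 4668 and 2430 in DON replicates 1 to 3. The groups were separate, but the lowest A-DON value was only 1.55 times the highest DON value, the narrowest gap of the 5 genes that rose. The means were 10530 ± 2845 in A-DON and 2961 ± 1513 in DON (SD, n = 3 each). The log2 fold change was 1.91 ± 0.40 (standard error; limma adjusted p = 0.0204), or 3.76-fold with a 95% interval of 1.91 to 7.38.

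Grin1, which encodes the subunit every NMDA receptor needs, had 11428, 6370 and 11459 normalized counts in A-DON replicates 1 to 3, against 1261, 3485 and 1200 in DON replicates 1 to 3. The lowest A-DON value was 1.83 times the highest DON value. The means were 9753 ± 2930 in A-DON and 1982 ± 1302 in DON (SD, n = 3 each). The log2 fold change was 2.43 ± 0.48 (standard error; limma adjusted p = 0.0177), or 5.40-fold with a 95% interval of 2.42 to 12.1.

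Grin2a, which encodes the GluN2A subunit, had the largest fold change of the 6 genes. It had 984.9, 440.2 and 322.3 normalized counts in A-DON replicates 1 to 3, against 10.5, 20.02 and 28.3 in DON replicates 1 to 3. The lowest A-DON value was 11.4 times the highest DON value. The means were 582.5 ± 353.4 in A-DON and 19.6 ± 8.91 in DON (SD, n = 3 each), and the log2 fold change was 4.76 ± 0.54 (standard error; limma adjusted p = 0.00866). The 1 added to each value before the log makes the change of a low gene look smaller, and on that scale this is 27.1-fold with a 95% interval of 10.9 to 67.3. Only 42 of the tested genes had a larger rise, and 99.8% had a smaller log2 fold change. The DON values rest on few reads: 11, 21 and 28 in DON replicates 1 to 3, with exact 95% Poisson intervals of 5.49 to 19.7, 13.0 to 32.1 and 18.6 to 40.5 reads, against 1023, 408 and 326 reads in A-DON replicates 1 to 3. These intervals cover counting error only.

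Grin2b, which encodes the GluN2B subunit, had 501.6, 181.2 and 202.7 normalized counts in A-DON replicates 1 to 3, against 55.3, 44.8 and 47.5 in DON replicates 1 to 3. The lowest A-DON value was 3.28 times the highest DON value. The means were 295.2 ± 179.1 in A-DON and 49.2 ± 5.44 in DON (SD, n = 3 each). The log2 fold change was 2.41 ± 0.42 (standard error; limma adjusted p = 0.0143), or 5.30-fold with a 95% interval of 2.60 to 10.8. The 3 DON libraries were alike in this gene: their coefficient of variation was 11.1%, where counting error alone gives 14.0%. In the A-DON libraries the coefficient of variation was 60.7%, against 5.79% from counting alone.

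**Figure D2:**
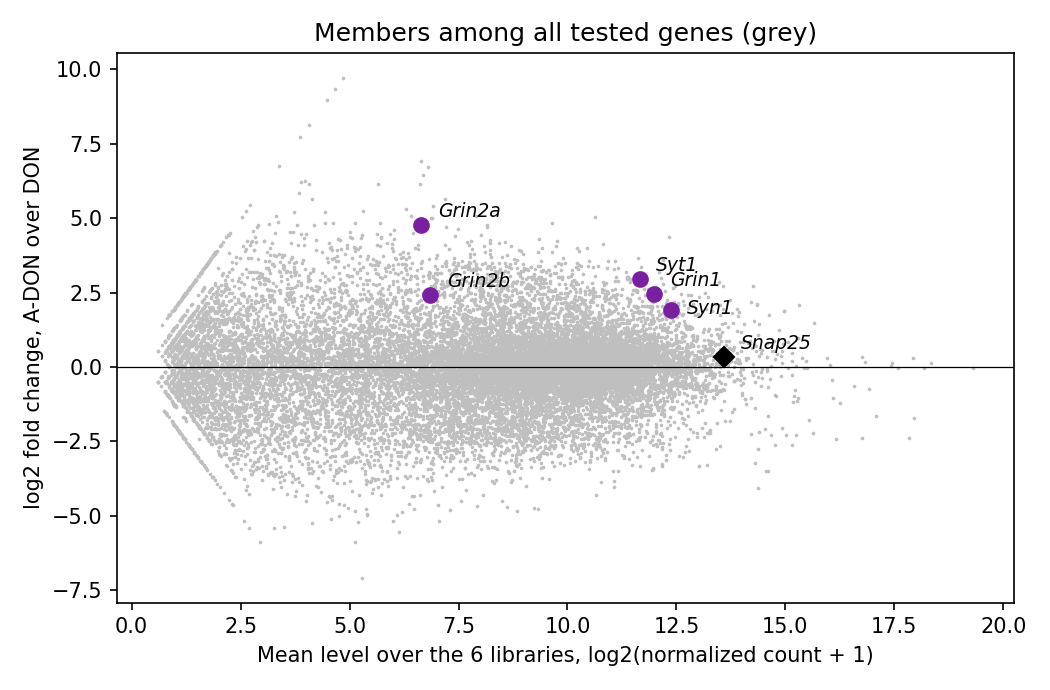
The log2 fold change of A-DON over DON against the mean log2 level over the 6 libraries, for every tested gene (grey) and the 6 genes named (purple circles, adjusted p under 0.05; black diamond, not past the test). Grin2a, at 4.76, lies near the upper edge of the cloud, and Snap25, at 0.33, lies close to 0.

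How far the genes moved in step was measured with 7 within-library log2 ratios, which depend little on how a library is scaled. A ratio between genes also carries the lengths of their transcripts, so only its difference between the groups is read here. With 3 rats against 3, the smallest two-sided p that the exact permutation test allows is 0.1, and 6 of the 7 ratios reached it (0.117 after Benjamini-Hochberg adjustment over the 7). None of these differences can therefore pass a threshold of 0.05, and they are given as sizes with their spread. The 7 ratios share genes and are not independent of each other. How often ratios between other genes separate the groups was not tested. Separation was common for single genes, with every A-DON library above every DON library in 28% of all tested genes. That share covers only this direction, whereas the 6 ratios were separate in either direction. The share of genes with every A-DON library below every DON library is not given here.

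Within the release genes, Syt1 and Syn1 stood higher relative to Snap25 in every A-DON rat than in any DON rat. The ratio of Syt1 to Snap25 normalized counts was 0.685, 0.62 and 0.637 in A-DON replicates 1 to 3, against 0.176, 0.157 and 0.0422 in DON replicates 1 to 3. Its log2 averaged -0.63 ± 0.08 in A-DON and -3.25 ± 1.15 in DON (SD, n = 3 each), a difference of 2.62 (exact permutation p = 0.1). DON replicate 3, with the lowest ratio, carried part of it, and without that library the difference was 1.96. The log2 ratio of Syn1 to Snap25 averaged -0.44 ± 0.12 in A-DON and -2.01 ± 0.42 in DON (SD, n = 3 each), a difference of 1.58 (exact permutation p = 0.1). Neither ratio overlapped between the groups, and both had the smaller SD in A-DON. The log2 ratio of Syn1 to Syt1 lay below all DON values in each A-DON rat, at 0.19 ± 0.11 in A-DON and 1.23 ± 0.77 in DON (SD, n = 3 each; exact permutation p = 0.1).

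Within the receptor genes, the ratio between the GluN2 genes was separate between the groups, while Grin2b relative to Grin1 overlapped. The ratio of Grin2b to Grin2a normalized counts was 0.509, 0.412 and 0.629 in A-DON replicates 1 to 3, against 5.27, 2.24 and 1.68 in DON replicates 1 to 3. Every A-DON value lay below every DON value. In DON this ratio rests on 11, 21 and 28 Grin2a reads in replicates 1 to 3, so counting error adds to its spread. The log2 ratio averaged -0.97 ± 0.30 in A-DON and 1.38 ± 0.81 in DON (SD, n = 3 each), a difference of -2.35 (exact permutation p = 0.1). The log2 ratio of Grin2a to Grin1 averaged -4.18 ± 0.85 in A-DON and -6.50 ± 1.04 in DON (SD, n = 3 each), a difference of 2.33 (exact permutation p = 0.1). Its groups only just separated, with -5.15 in A-DON replicate 3 and -5.36 in DON replicate 3. The log2 ratio of Grin2b to Grin1 averaged -5.15 ± 0.65 in A-DON and -5.12 ± 0.98 in DON (SD, n = 3 each), a difference of -0.03 that lay well within the spread of either group (exact permutation p = 0.9). With so few rats, this does not show that the ratio was equal.

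The mean log2 value of the 3 receptor genes minus that of the 3 release genes averaged -3.31 ± 0.42 in A-DON and -4.78 ± 0.52 in DON (SD, n = 3 each). The difference was 1.47, the groups did not overlap, and the exact permutation p was 0.1. It rested on Snap25 and Grin2a, the genes with the smallest and the largest change. Without these, a choice made after the values were seen, Grin1 and Grin2b minus Syt1 and Syn1 averaged -2.60 ± 0.27 in A-DON and -2.59 ± 0.52 in DON (SD, n = 3 each), a difference of -0.01 (exact permutation p = 0.9).

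**Figure D3:**
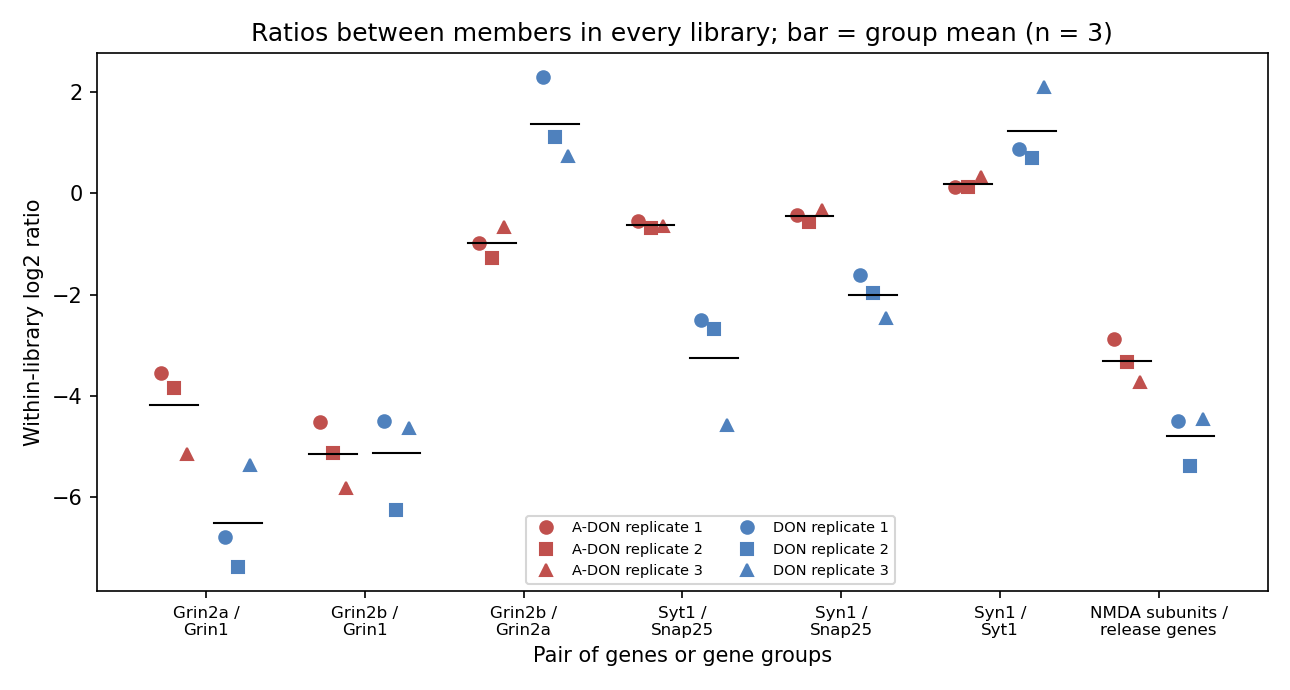
The 7 within-library log2 ratios between the genes in every library, A-DON in red left of DON in blue, with a bar at each group mean (n = 3). The ratio of Grin2b to Grin1 overlaps between the groups, and the ratio of Grin2b to Grin2a is lower in each A-DON library than in any DON library.

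Among the rats of a group, the 6 genes did not all rank the libraries alike. In DON, replicate 2 was highest for Snap25, Syt1, Syn1 and Grin1, by 0.73, 1.31, 0.78 and 1.00 log2 units above the group mean. The same library was 0.13 above the mean for Grin2a and 0.13 below it for Grin2b, so the excess was not seen in the GluN2 genes. For Grin2a the value rests on 21 reads (exact 95% Poisson interval 13.0 to 32.1), so a moderate excess could be missed there. Snap25 was lowest in DON replicate 1, and Syt1 in DON replicate 3. In A-DON, replicate 2 was lowest for Snap25, Syt1, Syn1, Grin1 and Grin2b, by 0.37 to 0.56 log2 units below the group mean. For Grin2a the lowest A-DON library was replicate 3, at 0.69 below the mean. A-DON replicate 1 was 0.92 above the mean for both GluN2 genes, where the other 4 genes were 0.24 to 0.33 above it.

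**Figure D4:**
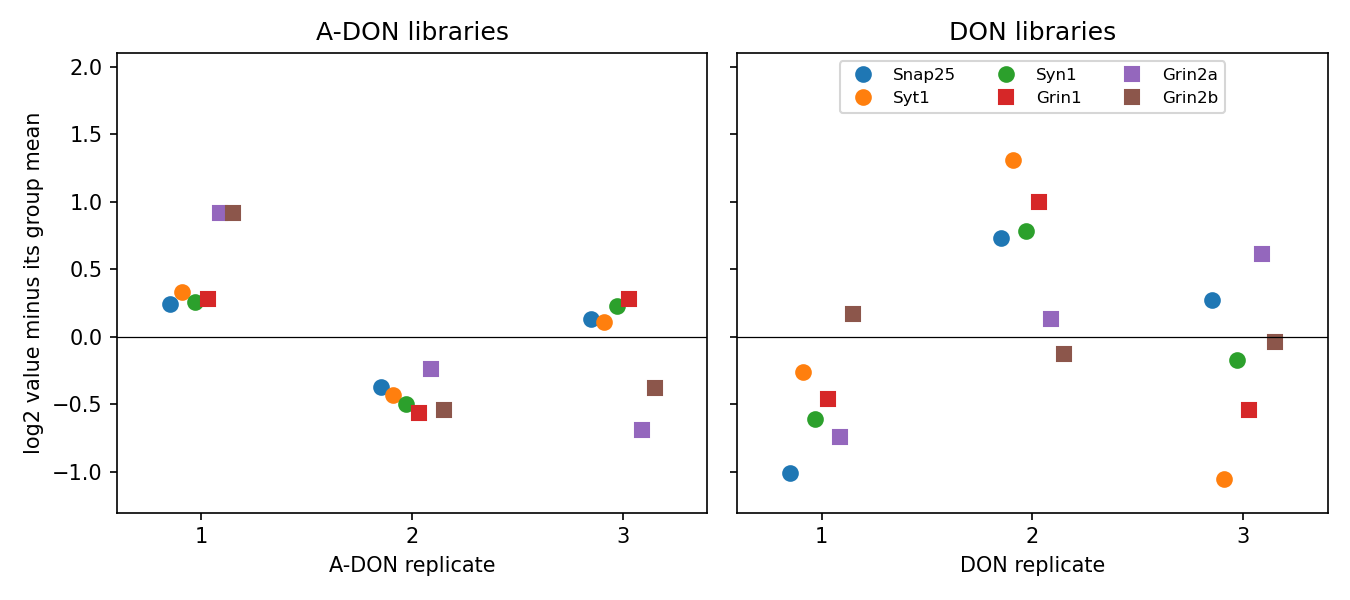
Deviation of each gene's log2 value from its group mean in every library, A-DON on the left and DON on the right; circles are release genes and squares are receptor genes. DON replicate 2 is high for Snap25, Syt1, Syn1 and Grin1 and near 0 for Grin2a and Grin2b, and A-DON replicate 1 is high for both GluN2 genes.

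On the linear scale, A-DON replicate 2 lay between the DON mean (0) and the mean of the other A-DON libraries (1) for each of the 5 genes that rose. Its position was 0.57 for Syt1, 0.47 for Syn1, 0.46 for Grin1, 0.66 for Grin2a and 0.44 for Grin2b. For Syt1, Syn1 and Grin1 this library was clearly below both other A-DON libraries. For the GluN2 genes it was not the library that stood apart: A-DON replicate 3 was lower still in Grin2a and close to it in Grin2b, and replicate 1 was the high one. The spread within groups exceeded that of the typical gene, except for Grin2b in DON. The SD of the log2 values was 0.33 to 0.83 in A-DON, where the median over all tested genes was 0.29. In DON it was 0.68 to 1.2 for 5 of the genes and 0.15 for Grin2b, where the median over all tested genes was 0.28.

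The calls of the 5 genes depended on single libraries, as did the number of calls over all tested genes. The direction of each of the 5 was the same in all 6 fits that left out a library. It could not be otherwise, because the groups did not overlap in these genes. Without A-DON replicate 2 or DON replicate 2 all 5 passed the test, as did 47.6% and 20.1% of all tested genes. Without DON replicate 1, 4 passed it and Syt1 did not (log2 fold change 2.82, limma adjusted p = 0.053), and 19.9% of all tested genes passed. Without DON replicate 3 only Grin2a passed it, and the other 4 had limma adjusted p of 0.054 to 0.0687. Of all tested genes 7.95% passed in that fit. Without A-DON replicate 1 or A-DON replicate 3 none of the 5 passed it: the limma adjusted p lay between 0.0503 and 0.082 in the first case and between 0.0585 and 0.0842 in the second. In those fits 35 and 12 of all tested genes passed it, and the 5 genes still had unadjusted p under 0.05. Over the 6 fits the log2 fold change was 2.43 to 3.60 for Syt1, 1.60 to 2.30 for Syn1, 2.17 to 2.93 for Grin1, 4.30 to 5.10 for Grin2a and 1.95 to 2.68 for Grin2b. On the linear scale, the fold change of Syt1 moved by up to 1.57 times, without DON replicate 2.

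**Figure D5:**
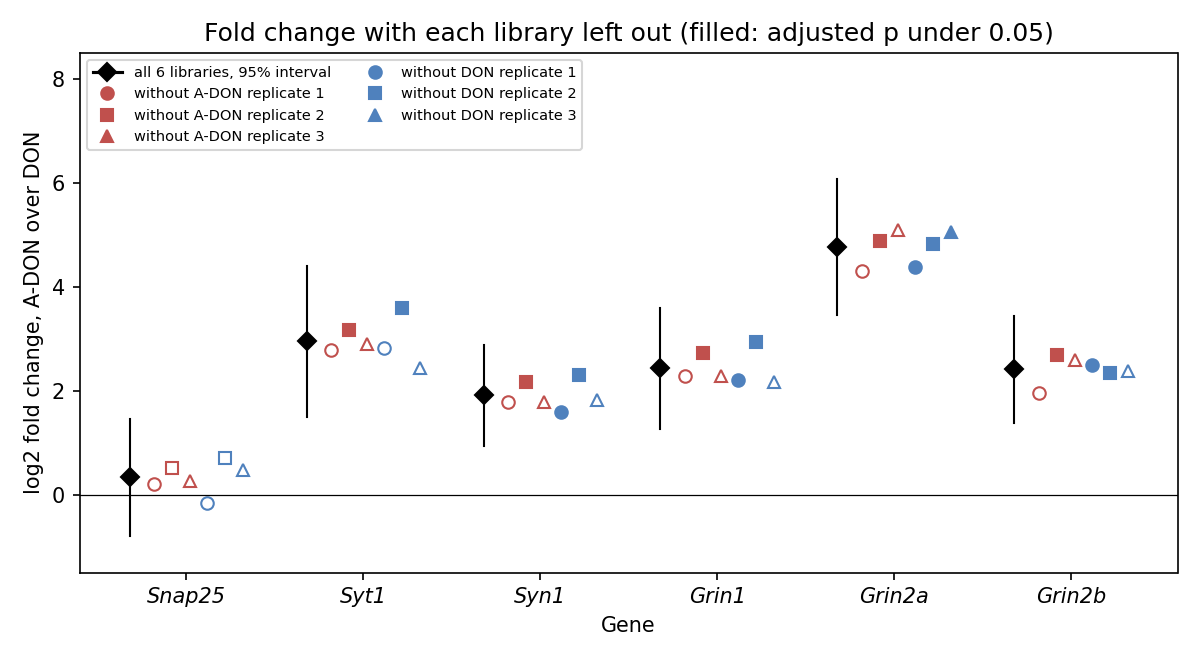
The log2 fold change of A-DON over DON for each gene, with all 6 libraries (black diamond, 95% interval) and with each library left out (red, an A-DON library; blue, a DON library; filled where the limma adjusted p is under 0.05). The 5 genes other than Snap25 stay above 1.5 in every fit, and Snap25 crosses 0 without DON replicate 1.

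Syt1, Syn1 and Grin1 ordered the libraries in nearly the same way, with all A-DON libraries on top and DON replicate 2 next. These are also the 3 of the 6 genes with an entry in the promoter table at hand, so upstream sequence is shown for them alone, each with the 250 bases before the annotated start of the gene, from RefSeq on build GRCr8. The capitals mark exact matches, on either strand, to the cyclic AMP response element TGACGTCA or to the GC box GGGCGG, which is bound by Sp1-type factors.
Syt1 (chr7:46244214-46244463, minus strand): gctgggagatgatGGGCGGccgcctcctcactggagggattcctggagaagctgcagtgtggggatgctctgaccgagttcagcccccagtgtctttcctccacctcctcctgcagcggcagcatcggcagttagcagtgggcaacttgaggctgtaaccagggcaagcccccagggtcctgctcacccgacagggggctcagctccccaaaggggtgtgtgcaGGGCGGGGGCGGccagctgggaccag
Syn1 (chrX:3725495-3725744, plus strand): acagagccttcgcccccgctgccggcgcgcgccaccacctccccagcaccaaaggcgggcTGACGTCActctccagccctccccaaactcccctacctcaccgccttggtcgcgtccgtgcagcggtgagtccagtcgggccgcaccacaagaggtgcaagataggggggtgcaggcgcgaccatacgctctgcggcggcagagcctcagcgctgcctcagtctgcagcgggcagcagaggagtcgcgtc
Grin1 (chr3:28528755-28529004, minus strand): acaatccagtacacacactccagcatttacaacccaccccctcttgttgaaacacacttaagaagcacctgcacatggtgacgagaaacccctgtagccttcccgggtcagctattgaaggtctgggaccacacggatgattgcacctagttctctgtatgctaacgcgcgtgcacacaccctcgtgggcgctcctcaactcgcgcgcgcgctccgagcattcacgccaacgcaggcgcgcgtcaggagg

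The Syn1 sequence held 1 cyclic AMP response element, which begins 190 bases before the start of the gene, and such a match occurs in 1.59% of the 33469 RefSeq promoters of the same length. The Syt1 sequence held 3 GC boxes, 2 of them adjacent, and a match occurs in 30.5% of those promoters. The Grin1 sequence held neither. These matches are letters in a window and not tests of binding, and the 3 genes share neither motif in it. Snap25, Grin2a and Grin2b had no entry.

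The genes most like the mean profile of the 6 were sought over 14701 other genes averaging 50 or more normalized counts, by Pearson's r of log2 values across the 6 libraries. This coefficient follows the shape of a profile and not the size of its change, and it reflects the difference between the groups as well as that between rats. The closest was ENSRNOG00000004288 (r = 0.9998), with 556.5, 476.9 and 506.2 normalized counts in A-DON replicates 1 to 3, against 321.2, 386.1 and 341.5 in DON replicates 1 to 3. The next was ENSRNOG00000000894 (r = 0.9988), with 7407, 5089 and 6057 in A-DON replicates 1 to 3, against 1555, 2458 and 1815 in DON replicates 1 to 3. Their log2 fold changes were 0.55 and 1.68, smaller than those of the 5 genes that rose. Among the 6 genes themselves, the coefficient with their mean profile was 0.93 to 0.98 for the 5 that rose and 0.53 for Snap25. Each of the 6 is itself part of that mean, which raises its coefficient. These values are therefore not comparable with those of the other genes above.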

How the data were processed

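Spinal cord RNA of 6 rats was made into stranded mRNA-seq libraries for an Illumina NovaSeq 6000, per the labels' protocols. FastQC 0.11.2, STAR 2.5.3a, StringTie 1.3.1c and build rn6 appear in the submitters' processing notes with no role given. How reads were counted, and with which strand setting and annotation, is not given in the sources used here. Log2 values fill the table that the authors deposited. They were worked out from the values as log2(read count / size factor + 1): with the log2 undone, 100% of values were whole reads within 0.05. With the strand setting unknown, reads from overlapping genes may be mixed. The rats are separate animals, so replicates are biological.

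The groups were compared by limma 3.58.1 (R 4.3.3; intensity trend and robust moderation, with group as the single term) on the deposited log2 values. Genes needed 1 normalized count or more in 3 or more libraries, and p-values were adjusted by Benjamini-Hochberg over the 19515 genes kept. Ratios between genes were compared by exact two-sided permutation over libraries. Figures used Python 3.11.15 and matplotlib 3.10.9. Because 0 of the 22526 identifiers occur in the reference gene table, lists of other synaptic genes and of cell type markers (neurons, astrocytes, oligodendrocytes, microglia and macrophages, fibroblasts, Schwann cells, endothelium, muscle) could not be matched and gave no result. The tissue label was thus checked against no marker beyond the 6 genes, whose names come with the rule that chose them. Genes named are the 6 and the 2 others with the highest r to their mean profile. The 6 genes and the lists were chosen with earlier results of these data known. Alternatives were no filter, a mean of at least 5, a pseudocount of 0.1, equal library totals, quantile normalization, no trend or robust moderation, voom on the recovered reads, a block on replicate number, and each library left out in turn.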

Additional observations from a re-analysis of the deposited data

How the results depend on the processing

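Under the 7 alternatives other than the replicate block and leaving out a library, the 5 genes passed the test each time and Snap25 did not, with log2 fold changes within 2.94 to 3.04 (Syt1), 1.88 to 2.00 (Syn1), 2.41 to 2.53 (Grin1), 4.76 to 4.85 (Grin2a), 2.41 to 2.5 (Grin2b) and 0.33 to 0.43 (Snap25). Those past the threshold made up 28.9% to 38.8% of the genes tested in each fit, against 35.5% with the settings used above. Genes past the threshold numbered 5879 to 7457, against 6930. Of these calls 53.4% were higher in A-DON, and 64.3% with equal library totals.

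The titles number the rats 1 to 3 in both groups, but the deviations of same-numbered rats from their group means were not positively related (r = -0.17, -0.24 and -0.08 over genes). Each A-DON rat was closer to another number than to its own, which a negative r brings about because deviations within a group cancel out. These correlations gave no sign of pairing by number, but with so few rats they cannot exclude a shared batch. With the replicate block, which leaves 2 residual degrees of freedom, 0 genes passed in either direction (limma; 7601 at an unadjusted p under 0.05, and 0 of the 6, of which 5 were at an unadjusted p under 0.05). The log2 fold changes stayed 2.95 (Syt1), 1.91 (Syn1), 2.43 (Grin1), 4.76 (Grin2a) and 2.41 (Grin2b), with limma adjusted p of 0.0658 to 0.0777.

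Leaving out 1 library gave 12 to 9286 genes past the threshold, 11 to 4431 higher and 1 to 4855 lower, and 0 to 5 of the 6 genes. The log2 fold changes ran from -0.17 to 0.70 for Snap25, 2.43 to 3.60 for Syt1, 1.60 to 2.30 for Syn1, 2.17 to 2.93 for Grin1, 4.30 to 5.10 for Grin2a and 1.95 to 2.68 for Grin2b. The log2 ratio of Grin2b to Grin1, A-DON minus DON, ran from -0.59 to 0.31 and was 0.02 with quantile normalization, so its sign is not fixed. The other 6 ratios did not overlap between the groups, so leaving out a library could not change the sign of their differences. In the fits that left out a library these were 1.89 to 2.90 (Grin2a to Grin1), -2.68 to -1.90 (Grin2b to Grin2a), 1.96 to 2.99 (Syt1 to Snap25), 1.36 to 1.77 (Syn1 to Snap25), -1.31 to -0.60 (Syn1 to Syt1) and 1.17 to 1.68 (receptor to release genes). The last was -0.01 without Snap25 and Grin2a, an alternative chosen after seeing the data. Why single libraries decide the calls was not tested. Depth limits mainly Grin2a in DON, with 11 to 28 reads a library.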
